A study of Mus musculus with 6 samples.

Results

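The genes described here encode the proteins that bring an intracellular vesicle to its target membrane and fuse it: syntaxins, the SNAP-25 family, VAMPs, synaptotagmins, syntaxin-binding proteins, synapsins, SV2 proteins and complexins. They were taken by gene symbol, with earlier results of these data known, and 61 of the 23038 genes listed in the files matched. Transcript levels were measured by RNA-seq in primary mouse oligodendrocyte precursor cells (mOPCs), isolated by immunopanning from embryos at embryonic day 14.5. The 3 siNC libraries came from cells given control siRNA and the 3 siQk libraries from cells given siRNA against Qk, and all cells were collected 72 h after transfection. No genotype or strain is given for the embryos, and both groups were primary cultures exposed to an siRNA. Knockdown leaves part of the transcript, and several Qk siRNAs are named without saying which library received which, so that the spread among siQk libraries may cover siRNAs as well as cultures.

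Fusion is carried out by SNARE proteins. A VAMP on the vesicle zippers together with a syntaxin and a SNAP-25 family protein on the target membrane, Munc18-type syntaxin-binding proteins guide the assembly, synaptotagmins and complexins tune it, and NSF with its adaptors takes the spent complex apart. Neurons use Stx1a, Snap25 and Vamp2 for transmitter release, while many cell types use Stx4a, Snap23, Vamp3 and Stxbp3a for delivery to the cell surface. In oligodendrocytes (OLs), Vamp3 and Vamp7 are known for their part in carrying myelin proteolipid to the surface. Qk encodes RNA-binding proteins that act on splicing, stability and translation of transcripts in this lineage.

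The libraries held 58166490 to 141045937 tags, the authors' estimated counts. Levels are given as the deposited RPKM, in which tags are scaled by exon length and library total. Qk itself stood at 209, 206 and 163 RPKM in siNC replicates 1, 2 and 3 and at 51.3, 76.6 and 36.2 RPKM in siQk replicates 1, 2 and 3. Differences were tested by edgeR's quasi-likelihood method with TMM factors (0.899 to 0.987 in siNC, 1.04 to 1.07 in siQk), and a gene was called when P was under 0.01 and the FDR over all 12505 tested genes under 0.1. RPKM carries no TMM factor, and a log2 fold change therefore lies below what the RPKM alone would give. The 8 OPC markers summed to 1023 to 1100 RPKM in siNC and 1217 to 1370 RPKM in siQk, and the 8 markers of myelinating OLs to 2533 to 4816 RPKM in siNC and 1046 to 1722 RPKM in siQk. The OPC markers went both ways, with Olig1, Olig2 and Cspg4 called higher, Lhfpl3 lower and 4 not called, while 6 of the myelinating OL markers were called lower and none higher. In bulk RNA, fewer cells of a type and less RNA per cell cannot be told apart, and the part of these differences in the results that follow was not tested.

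Of the 61 genes, 50 were expressed highly enough to be tested, and 20 of them (40.0%) were called, against 31% of all tested genes. In each direction 10 were called, where 13.8% of all tested genes were higher and 17.2% lower in siQk. Over the 50 genes the log2 fold change had a median of -0.10, beside 0.01 for all tested genes. Changes of at least 2-fold were found for 9 called genes, with Snap25, Cplx1, Stx1a and Syn2 higher and Sv2b, Stxbp6, Syt4, Stxbp3a and Syt11 lower. Of all tested genes, 7.21% were called with a change of that size. The RPKM ranges of the groups did not overlap for 18 genes that stood higher in siQk and for 11 that stood lower, while 41.9% and 16.4% of all tested genes behaved in these ways (58.3% in either direction). The split of the calls moved with the scaling of the libraries: without TMM factors, 15 of the vesicle fusion genes were called higher and 8 lower, and the median of all tested genes was 0.16.

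**Figure D1:**
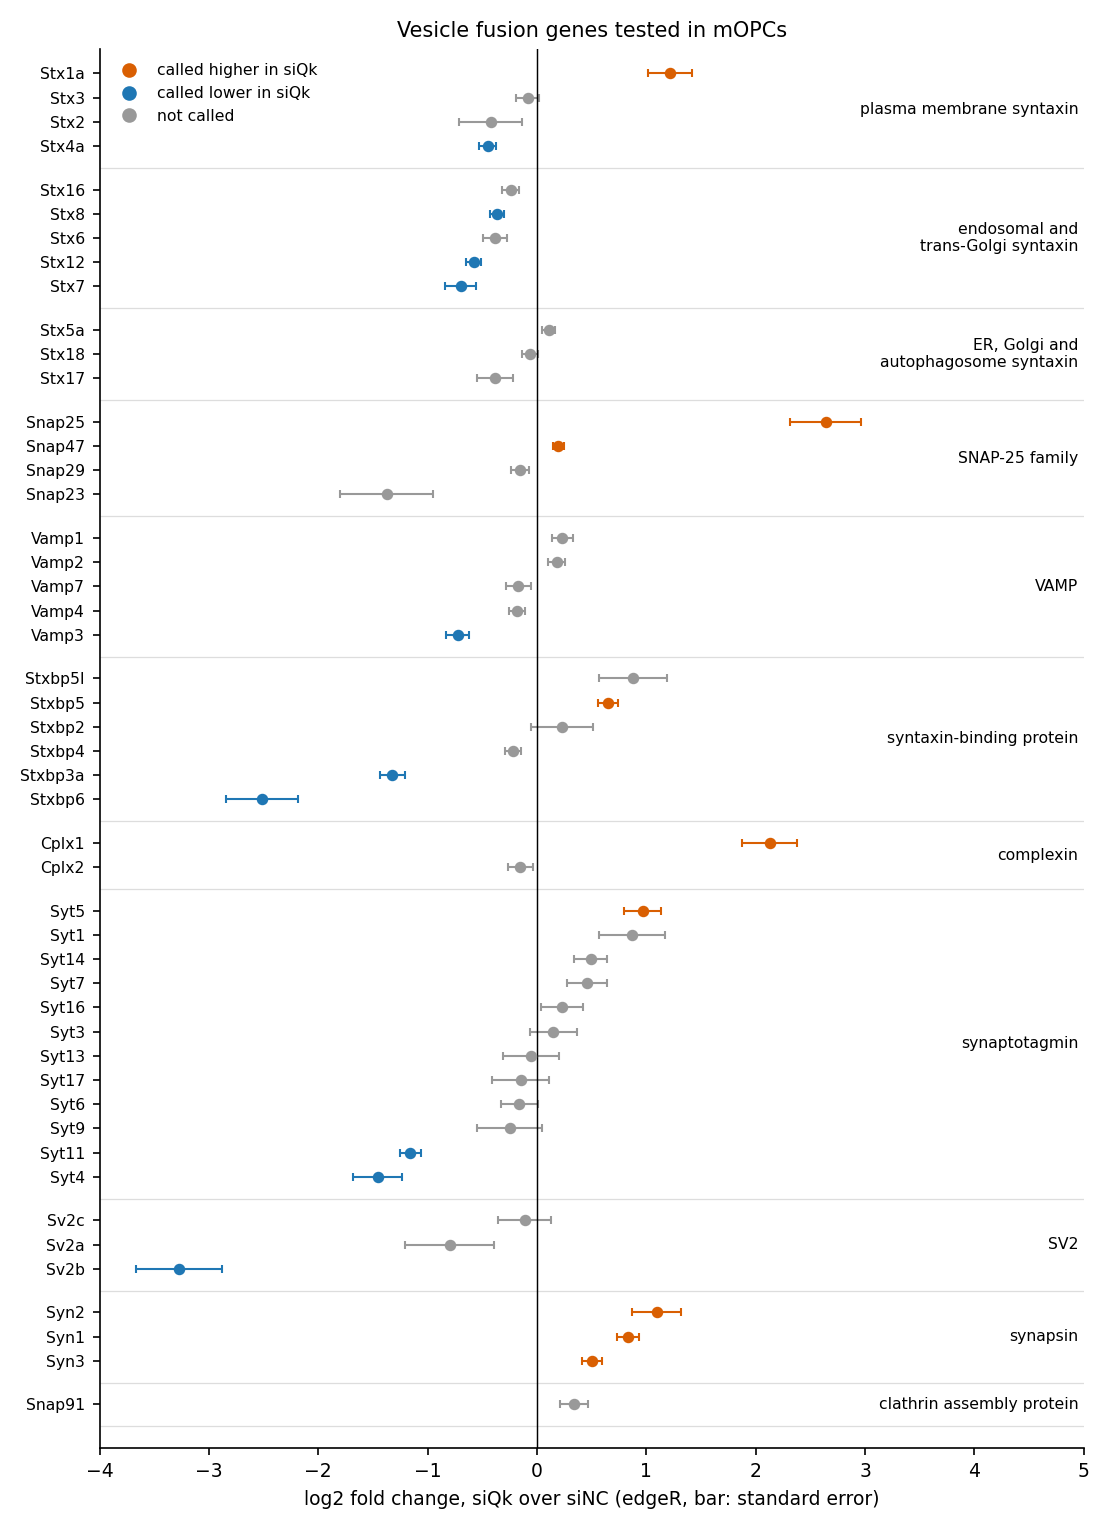
Log2 fold change of siQk over siNC (x axis) for tested vesicle fusion genes (y axis), grouped by role, with bars for the standard error of the edgeR fit. Orange points were called higher, blue points lower and gray points were not called, with Snap25 at 2.64 and Sv2b at -3.27 as the extremes.

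Qki proteins bind RNA at the hexamers ACUAAC and ACUAAU, which read ACTAAC and ACTAAT in DNA letters, and these were counted on the transcript strand of each gene's longest 3'UTR in the annotation. Of 49 tested vesicle fusion genes with such a 3'UTR, 42.9% held at least 1 match, against 37.0% of 11850 tested genes. Per length the order was the opposite, with 0.226 matches per kb in these genes and 0.329 per kb in all tested genes, since their 3'UTRs were longer (median 2235 nt, against 1475.5 nt). Matches were present in 3 of the 10 genes called higher and in 4 of the 10 called lower. The sites of the called genes are printed because they are the places in these 3'UTRs where Qki proteins could be looked for, with the hexamer in capitals and 12 bases on each side, 5' to 3', in GRCm38 coordinates. Genes called lower in siQk come first.
Stx12, chr4:132855315-132855344, minus strand: tagaatctaactACTAACtagtccttggaa
Stx12, chr4:132854145-132854174, minus strand: atcttgttctacACTAATgtgaccagcaga
Stx7, chr10:24188757-24188786, plus strand: atgttttaatgcACTAATatgaatgctgta
Stxbp6, chr12:44854048-44854077, minus strand: tgacgttagattACTAATgctgatttaaat
Sv2b, chr7:75115988-75116017, minus strand: aatctaaaccaaACTAATgactacattgag
Sv2b, chr7:75115414-75115443, minus strand: actttaaatctgACTAATttttaaagcaca
Cplx1, called higher, chr5:108519840-108519869, minus strand: ggacccctccttACTAATcttaagttcacc
Stxbp5, called higher, chr10:9758839-9758868, minus strand: ttgtgattatttACTAATagagaagtagag
Syn2, called higher, chr6:115276182-115276211, plus strand: catttgtgagccACTAATataaagttgcca
Among tested genes with a 3'UTR of like length (within 20%), the share with a match was 43.3% for Stx12, 51.0% for Stx7, 62.3% for Stxbp6 and 53.4% for Sv2b, and 36.9% for Cplx1, 78.0% for Stxbp5 and 47.3% for Syn2. A single site, in Stx12, reads ACTAAC and the others read ACTAAT. A match is a description of the sequence, and binding at these sites was not measured here. Neither Snap25 (3'UTR of 1285 nt) nor Snap23 (1914 nt) had a match in this window, where 30.5% and 42.3% of the tested genes of like length had one. Introns were not searched.

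Snap25 and Snap23 encode paralogous SNAREs of the plasma membrane, Snap25 in neurons and endocrine cells and Snap23 in most other cells. Snap25 (Entrez gene 20614, exon length 2119 nt) lies at chr2:136713439-136782428 and Snap23 (Entrez gene 20619, exon length 2223 nt) at chr2:120567655-120601255 of GRCm38, the assembly that mm10 names. Snap25 was at 0.641, 0.886 and 0.725 RPKM in siNC replicates 1, 2 and 3 and at 4.63, 3.35 and 7.57 RPKM in siQk replicates 1, 2 and 3, from 79 to 208 tags per siNC library and from 587 to 2028 tags per siQk library. All siQk libraries thus lay well above all siNC libraries, with replicate 3 the highest and replicate 2 the lowest of the siQk group. The log2 fold change was 2.64 (standard error 0.32, edgeR FDR 0.00211).

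Snap23 was at 24.3, 26.4 and 28.0 RPKM in siNC and at 7.90, 20.2 and 5.86 RPKM in siQk replicates 1, 2 and 3. The siQk libraries again stood apart from the siNC libraries, but replicate 2 stayed close to them while replicates 1 and 3 lay far below. At -1.37 on the log2 scale (standard error 0.43), Snap23 was not called, since its P of 0.0149 in the edgeR fit missed the cutoff although its FDR of 0.0427 did not. Without siQk replicate 2 the log2 fold change was -2.07 (edgeR FDR 0.00365) and the gene was called. Replicate 2 was also the siQk library with the most Qk left and the least Snap25, and replicate 3 the one with the least Qk and the most Snap25. Whether the level of Qk left in a library bears on either gene was not tested.

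**Figure D2:**
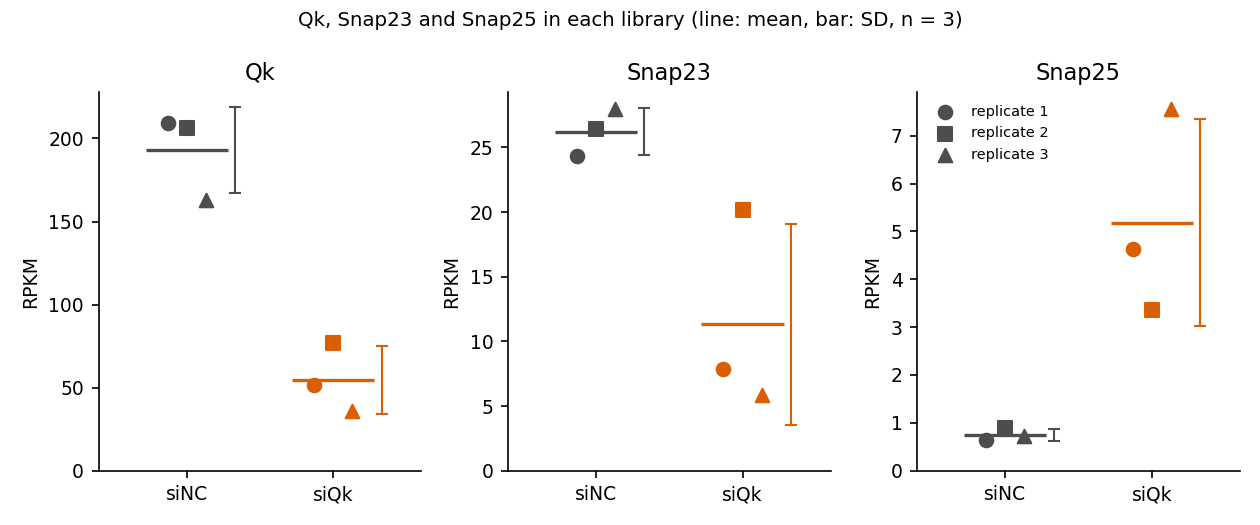
RPKM (y axes, from 0) of Qk, Snap23 and Snap25 in the 3 siNC and 3 siQk libraries, with 1 symbol per replicate number, a line at the mean and a bar for the SD. In siQk, replicate 2 (square) held the highest Qk (76.6), the highest Snap23 (20.2) and the lowest Snap25 (3.35), and replicate 3 (triangle) the lowest Qk (36.2), the lowest Snap23 (5.86) and the highest Snap25 (7.57).

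Set against each other within a library, which removes any scaling between libraries, Snap25 reached 0.0264, 0.0336 and 0.0259 times the Snap23 RPKM in the siNC replicates and 0.586, 0.166 and 1.29 times in the siQk replicates. In siQk replicate 3 alone did Snap25 exceed Snap23. The log2 ratio averaged -5.14 ± 0.21 in siNC and -0.997 ± 1.49 in siQk (SD, n = 3 each), a difference of 4.14 (two-sided exact permutation p = 0.1, the lowest attainable with 3 libraries a group). The difference had the same sign with each library left out and ranged from 3.46 to 4.94.

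Of the other members of the family, Snap47, a widely expressed relative, had the highest RPKM, with 38.3, 42.6 and 43.2 RPKM in siNC and 53.7, 52.0 and 51.8 RPKM in siQk. Its log2 fold change of 0.19 (standard error 0.05, edgeR FDR 0.0266) passed the cutoffs, but the call was lost with any single library left out (0.18 to 0.21), and 11.6% of its exon bases overlap Jmjd4 on the opposite strand, which was also called higher. Snap29, which acts in endosomal and autophagosomal fusion, averaged 21.7 ± 1.61 RPKM over the siNC and 21.6 ± 0.267 RPKM over the siQk libraries (SD, n = 3 each) and was not called. Summed over the 4 genes, the family held 90.0 ± 4.35 RPKM in siNC and 90.6 ± 5.53 RPKM in siQk (SD, n = 3 each). Within that sum, Snap25 took 0.832 ± 0.106% in siNC and 5.81 ± 2.68% in siQk (SD, n = 3 each, two-sided exact permutation p = 0.1, again the lowest attainable). The share of Snap23 was 29.1 ± 1.14% in siNC and 12.2 ± 7.56% in siQk, a description that rests on the same values. Snap91 matches the symbol rule but encodes the clathrin assembly protein AP180, which is no SNARE. It averaged 28.0 ± 3.58 RPKM over the siNC and 39.3 ± 4.13 RPKM over the siQk libraries and was called higher without TMM factors (log2 fold change 0.49) but not with them (0.34).

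Among the syntaxins, 1 was called higher and 4 lower of 13 tested (38.5%, against 31% of all tested genes). The one that rose was Stx1a, the partner of Snap25 at the presynaptic membrane, with 4.01, 4.08 and 4.32 RPKM in siNC and 10.6, 7.78 and 13.7 RPKM in siQk replicates 1, 2 and 3 (log2 fold change 1.22, standard error 0.20, edgeR FDR 0.00549). Its siQk libraries followed the same order as those of Snap25, with replicate 3 highest and replicate 2 lowest. Stx4a, the syntaxin of surface delivery in many cell types, fell by 0.45 on the log2 scale (standard error 0.07, edgeR FDR 0.00522), from 44.0, 46.4 and 49.4 RPKM to 36.4, 41.9 and 35.2 RPKM. Of its exon bases, 5.25% overlap an annotated gene on the opposite strand, and the library kit is not stated to keep the strand, so that reads there cannot be told apart. Stx2, with 30.0 to 63.5 RPKM in siNC and 30.8 to 46.0 RPKM in siQk, and Stx3, with 0.931 to 1.07 RPKM over all libraries, were not called.

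All 5 syntaxins of endosomes and the trans-Golgi network had log2 fold changes below 0, as did 6103 of all 12505 tested genes. Of the 5, 3 were called (60.0%, against 31% of all tested genes). Stx7, a late endosomal syntaxin and on average the highest of the syntaxins in siNC, stood at 94.0, 68.6 and 92.8 RPKM in siNC and at 56.8, 57.6 and 60.6 RPKM in siQk (log2 fold change -0.70, standard error 0.14, edgeR FDR 0.00968). Stx12 of recycling endosomes went from 77.6, 74.2 and 83.6 RPKM to 57.1, 57.7 and 60.4 RPKM (log2 fold change -0.58, standard error 0.07, edgeR FDR 0.00193). For both genes the siQk libraries lay close together and below every siNC library. Stx8, which pairs with Stx7, fell by 0.36 on the log2 scale (edgeR FDR 0.00600), from 6.39, 6.76 and 7.43 RPKM to 6.03, 5.82 and 5.88 RPKM. Stx6 (log2 fold change -0.38) and Stx16 (-0.24) were not called, nor were Stx5a, Stx17 and Stx18 of the Golgi, autophagosomes and the ER, though Stx5a was called higher without TMM factors (0.26). The calls of Stx4a and Stx8 were lost without TMM factors (log2 fold changes -0.30 and -0.22).

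Of the 5 tested VAMPs, Vamp3 alone was called. This SNARE of recycling vesicles was at 80.9, 91.8 and 92.2 RPKM in siNC and at 64.6, 50.4 and 62.6 RPKM in siQk replicates 1, 2 and 3 (log2 fold change -0.73, standard error 0.11, edgeR FDR 0.00365). Unlike for Snap23, replicate 2 was here the lowest siQk library. Vamp2, the synaptic vesicle SNARE, averaged 51.9 ± 1.94 RPKM over the siNC and 65.4 ± 3.23 RPKM over the siQk libraries. It was not called with TMM factors (log2 fold change 0.18, standard error 0.08) but was called without them (0.33). Vamp2 stood below Vamp3 in each siNC library, at 0.538 to 0.650 times its RPKM, while in siQk the ratio was 0.993, 1.25 and 1.10. Vamp1, with 1.18 to 1.65 RPKM over all libraries, was not called, nor were Vamp4 and Vamp7 of the trans-Golgi network and late endosomes (log2 fold changes -0.18 and -0.17).

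Syntaxin-binding proteins moved in both directions. Stxbp3a encodes Munc18c, which works with Stx4a and Snap23, and it was at 23.1, 21.1 and 19.6 RPKM in siNC and at 9.46, 8.87 and 10.1 RPKM in siQk (log2 fold change -1.32, standard error 0.11, edgeR FDR 0.000759). The siQk libraries lay close together and far below every siNC library. Stxbp5, the soluble syntaxin-binding protein tomosyn, which restrains fusion, rose from 4.15, 4.32 and 4.43 RPKM to 7.99, 6.58 and 7.89 RPKM (log2 fold change 0.65, standard error 0.09, edgeR FDR 0.00316). Stxbp6, the small tomosyn-related protein amisyn, was at 0.931, 1.67 and 0.811 RPKM in siNC and at 0.177, 0.210 and 0.274 RPKM in siQk (log2 fold change -2.52, standard error 0.33, edgeR FDR 0.00268). For these 3 genes the RPKM ranges of the groups did not overlap, as for 58.3% of all tested genes. Stxbp2, Stxbp4 and Stxbp5l were not called (log2 fold changes 0.23, -0.22 and 0.88).

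**Figure D3:**
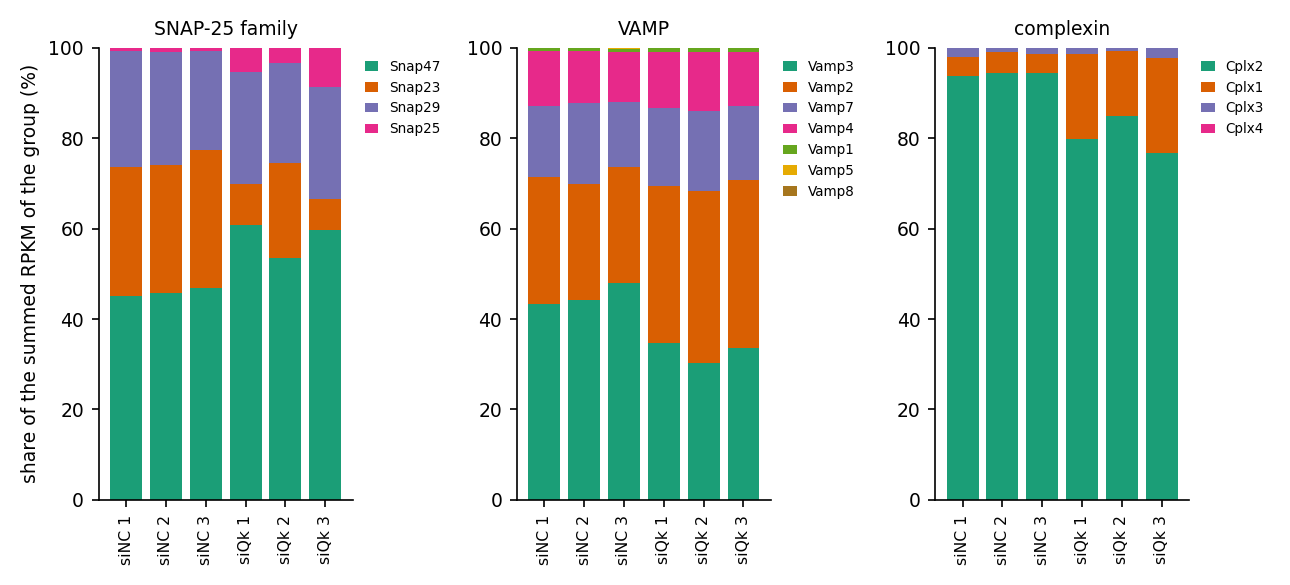
Share of the summed RPKM of each group (y axis, percent) taken by its members in each of the 6 libraries (x axis) for the SNAP-25 family, VAMPs and complexins. Vamp3 went from a mean share of 45.2% in siNC to 32.9% in siQk and Cplx1 from 4.35% to 18.0%.

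Complexins bind the assembled SNARE complex and hold it ready for calcium. Cplx1 was at 0.289, 0.406 and 0.379 RPKM in siNC and at 1.58, 1.36 and 2.29 RPKM in siQk replicates 1, 2 and 3 (log2 fold change 2.13, standard error 0.25, edgeR FDR 0.00187), from 37 to 110 and from 247 to 637 tags. As with Snap25 and Stx1a, replicate 3 was the highest and replicate 2 the lowest siQk library. Cplx2, which made up most of the complexin RPKM, was at 6.46, 8.38 and 8.39 RPKM in siNC and at 6.74, 8.09 and 8.33 RPKM in siQk. Its groups overlapped throughout, and it was not called (log2 fold change -0.15, standard error 0.11). Cplx3 and Cplx4 were too low to be tested.

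Synaptotagmins are vesicle proteins, several of which sense calcium through their C2 domains. Of 12 tested, 1 was called higher and 2 lower (25.0%, against 31% of all tested genes). Syt11, which does not bind calcium, had the highest mean RPKM in siNC of all 61 genes, with 191, 185 and 170 RPKM in siNC and 89.5, 87.8 and 94.7 RPKM in siQk (log2 fold change -1.16, standard error 0.10, edgeR FDR 0.000732). Its relative Syt4 was at 39.7, 26.5 and 50.8 RPKM in siNC and at 15.8, 14.1 and 17.4 RPKM in siQk (log2 fold change -1.46, standard error 0.23, edgeR FDR 0.00436), and 14.5% of its exon bases overlap an annotated antisense transcript. The siNC spread of Syt4 was wide, but each siQk library lay below it. Summed over all synaptotagmins, the RPKM was 239 ± 6.67 in siNC and 131 ± 5.19 in siQk (SD, n = 3 each), and Syt11 made up most of it in both groups. Syt5 rose from 2.58, 2.87 and 3.71 RPKM to 5.43, 6.81 and 7.60 RPKM (log2 fold change 0.97, standard error 0.17, edgeR FDR 0.00674). Syt1, the calcium sensor of fast transmitter release, was at 1.17, 2.39 and 1.09 RPKM in siNC and at 3.56, 2.89 and 2.97 RPKM in siQk. Its siQk libraries lay above the siNC libraries, of which replicate 2 was the closest, and Syt1 was not called (log2 fold change 0.87, standard error 0.30), though it was without siNC replicate 2 (1.32), without TMM factors (1.02) and by DESeq2 (0.86). The other synaptotagmins tested, Syt3, Syt6, Syt7, Syt9, Syt13, Syt14, Syt16 and Syt17, were not called and had log2 fold changes from -0.25 (Syt9) to 0.49 (Syt14).

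All 3 synapsins, the phosphoproteins that tether synaptic vesicles to the cytoskeleton, were called higher, as were 13.8% of all tested genes. Syn1 was at 6.76, 9.05 and 8.13 RPKM in siNC and at 14.99, 15.3 and 17.0 RPKM in siQk (log2 fold change 0.83, standard error 0.10, edgeR FDR 0.00220). Syn2 went from 2.44, 4.01 and 4.12 RPKM to 9.30, 9.57 and 6.13 RPKM (log2 fold change 1.10, standard error 0.22, edgeR FDR 0.0109), and here siQk replicate 3 was the lowest of its group. Syn3 rose from 6.11, 6.23 and 5.44 RPKM to 8.85, 9.47 and 9.81 RPKM (log2 fold change 0.51, standard error 0.09, edgeR FDR 0.00744). Timp3 lies inside Syn3 on the opposite strand and overlaps 14.1% of the exon bases of Syn3, and since Timp3 was itself called higher (log2 fold change 0.76) and reads of the strands cannot be told apart, the value of Syn3 is uncertain to that degree. Together the synapsins held 17.4 ± 1.997 RPKM in siNC and 33.5 ± 0.758 RPKM in siQk (SD, n = 3 each).

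SV2 proteins are transporter-like glycoproteins of synaptic and secretory vesicles. Sv2b was at 0.294, 0.428 and 0.178 RPKM in siNC and at 0.0265, 0.0438 and 0.0345 RPKM in siQk, from 137 to 380 and from 29 to 35 tags. Its log2 fold change of -3.27 (standard error 0.40, edgeR FDR 0.00202) was the lowest of the tested vesicle fusion genes. Sv2a, by RPKM the main SV2 gene, stood at 33.8, 35.7 and 15.9 RPKM in siNC and at 17.2, 11.3 and 26.4 RPKM in siQk. Its groups overlapped, with siNC replicate 3 below siQk replicates 1 and 3, and it was not called (log2 fold change -0.80, standard error 0.41). Sv2c, at 3.03 to 4.90 RPKM over all libraries, was not called (log2 fold change -0.11).

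**Figure D4:**
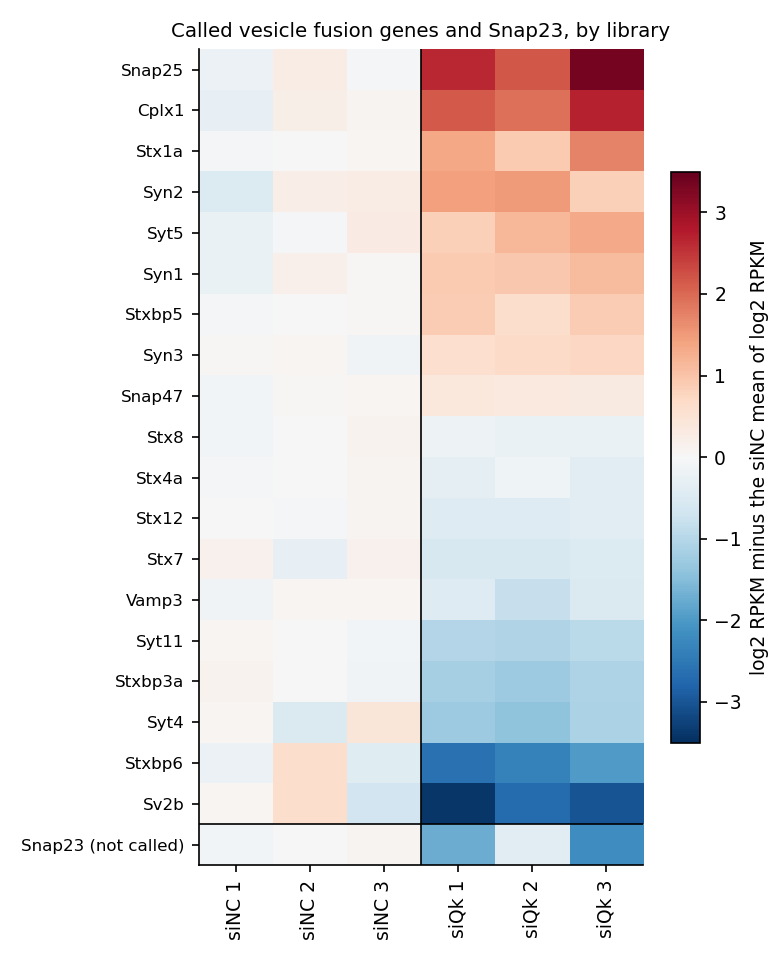
Log2 RPKM of each library minus the mean log2 RPKM of the siNC libraries (color, blue lower and red higher) for called vesicle fusion genes, in the order of their fold change, and for Snap23. The 3 siQk columns have the same color direction in each row, and Snap23 was much closer to siNC in siQk replicate 2 (-0.38) than in replicates 1 (-1.73) and 3 (-2.16).

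The 11 genes that were not tested had few tags. Vamp8, Cplx4 and Syt8 had at most 3 tags in any library, and Syt2, Syt10, Syt15 and Stx19 at most 16. Vamp5, Stx11, Syt12 and Cplx3 had 4 to 90 tags per library. Of these, Vamp5 was at 0.240, 0.312 and 0.354 RPKM in siNC and at 0.0602, 0.117 and 0.0336 RPKM in siQk, and it was called lower once the filter on low counts was removed.

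Genes of the same pathway that the symbol rule does not take were read from lists of their own. Of 71 such genes, 69 were in the files and 56 were tested, of which 7 were called higher and 12 lower (33.9%, against 31% of all tested genes). Without TMM factors the balance turned over, with 11 called higher and 7 lower. With these factors, 13.8% of all tested genes were called higher and 17.2% lower, as a background for the single lists. Of the 4 genes that take SNARE complexes apart, Napa (log2 fold change 0.36), Napb (0.81) and Nsf (0.31) were called higher and Napg was not called. Among the priming and docking genes, 3 of 16 tested were called, all higher: Unc13a, which readies syntaxin for assembly, went from 3.23 ± 0.381 to 6.49 ± 1.47 RPKM (SD, n = 3 each), and the others were Rimbp2 (log2 fold change 1.30) and Doc2g (0.48). Of the 12 SNAREs of the ER, Golgi and endosomes with other names, 6 were called lower, among them Bet1 (-0.75), Ykt6 (-0.48) and Sec22c (-0.46), and none higher, while 3 were called lower without TMM factors. The exocyst, which tethers vesicles at the surface, had 3 of 9 genes called lower (1 without TMM factors), and Snapin, which binds SNAP-25, fell by 0.79 on the log2 scale. Of 11 vesicle membrane protein genes tested, 1 was called higher and 1 lower (18.2%, against 31% of all tested genes). The higher one was Syp, the synaptic vesicle protein synaptophysin, which rose from 2.78 ± 0.656 to 5.34 ± 0.962 RPKM (SD, n = 3 each). Its widely expressed relative Sypl, the lower one, fell from 11.1 ± 0.856 to 5.74 ± 0.449 RPKM (SD, n = 3 each).

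Several of the genes that rose are best known from neurons, and the levels of other neuronal genes in the same libraries were as follows. The 16 neuronal genes, none of them among the 61, summed to 333 to 455 RPKM in siNC and 389 to 414 RPKM in siQk, and of the 12 tested 2 were called higher (Nefl and Map2, listed as Mtap2) and 1 lower (Gad2). Of all tested genes, 13.8% were called higher and 17.2% lower. For 6 of the 12 tested neuronal genes the siQk libraries all lay above the siNC libraries, as they did for 41.9% of all tested genes. These were Nefl, Map2 and, among genes not called, Dcx (mean 9.69 RPKM in siNC, 18.7 RPKM in siQk), Nefm (2.31 and 4.68 RPKM), Elavl4 (7.54 and 12.7 RPKM) and Gad1 (0.419 and 0.634 RPKM). Elavl3 (log2 fold change -0.61), Tubb3 (-0.57), Rbfox3 (-0.57), Gap43 (-0.27) and Slc12a5 (-0.16) went the other way and were not called. Most of the sum came from Gap43, Tubb3 and Map2, of which Gap43 and Tubb3 had overlapping groups. Stmn2 did not exceed 0.0439 RPKM, Slc32a1 0.0547 RPKM and Slc17a7 0.0699 RPKM in any library, and Slc17a6 was listed at 0 in all of them. The 6 astrocyte markers summed to 80.8 to 135 RPKM in siNC and 29.2 to 32.7 RPKM in siQk, the 6 microglial markers to at most 3.32 RPKM and the 10 fibroblast and vascular markers to at most 4.96 RPKM in any library. P2ry12, the only microglial marker tested, was called lower (mean 1.69 RPKM in siNC, 0.208 RPKM in siQk, log2 fold change -3.16). Most of the astrocyte sum in siNC was Gfap (69.1 ± 28.0 RPKM in siNC, 9.85 ± 1.26 RPKM in siQk), and of the 5 tested Gfap, Slc1a2 and Aldh1l1 were called lower, Sox9 was called higher and Aqp4 was not called. The part of the neuronal, astrocyte and microglial markers in the values of the vesicle fusion genes was not tested.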

How the data were processed

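Polyadenylated RNA of 3 siNC and 3 siQk mOPC cultures was sequenced as paired ends, and the authors mapped the reads to mm10 with OLego and counted them per gene with Quantas (versions and gene annotation are not given in the sources used here). The authors deposited, per gene and library, an estimated count of tags that can carry decimals, without normalization, beside the exon length and the RPKM. Estimated counts were rounded and tested with edgeR 4.0.16 (limma 3.58.1, R 4.3.3) on genes with average logCPM over 0, with TMM factors and the group as the only term. A gene was called at P below 0.01 and FDR below 0.1 (Benjamini-Hochberg). The standard error of a log2 fold change was its size over the square root of F. Counts were simulated with the same biological coefficient of variation (0.146) for each gene and with 2-fold changes. Of the 12501 genes tested there, 198 were changed. For these settings 99.5% of changed genes were called and 10.9% of calls were false. The raised genes among these 198 had a median log2 fold change of 0.98. In the 6 libraries 3879 of 12505 tested genes were called, 901 of them with a change of at least 2-fold. Recovery and false calls for smaller differences, such as those of Snap47 and Stx8, were not tested. Nor were they tested for genes with a wider spread among libraries, such as Snap23, or with a larger share of changed genes. Libraries of a group differed by more than sampling noise (chi-square per degree of freedom from 38 to 342), and each counted as 1 replicate. Replicates are described as biological. The P-values of the fits set the difference between groups against the spread among libraries of a group, which in siQk may cover siRNAs as well as cultures.

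The genes were taken by symbol. Genes, role groups, pathway and marker lists were chosen with earlier results of these data known. Values per library are given for Qk, Snap25, Snap23, called genes with average logCPM over 3 or a change of at least 2-fold, and the highest gene of each symbol group. Those of Syt1, which is outside this rule, are given as well. Values of 2 of the 61 genes are left out of the text and figures, while the counts include them. Of the pathway genes, the rule named Rimbp2 and Sypl, called with at least a 2-fold change and ranges that did not overlap. The other pathway genes, Vamp5, and the ratios other than Snap25 to Snap23 were chosen after their values were seen, and those ratios carry no test. Gene positions come from RefSeq (GRCm38.p6), and 3'UTRs of at least 50 nt, site positions and exon overlaps from GENCODE M21 (GRCm38). Alternatives were DESeq2 1.42.0, edgeR's likelihood ratio test, other normalizations, filters and cutoffs, leaving out each library, blocking on the replicate number, and for shares a pseudocount of 0.1 or tags not divided by exon length.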

Additional observations from a re-analysis of the deposited data

How the results depend on the processing

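Of the 20 called vesicle fusion genes, all 20 kept their direction and 17 were called in each of up to 14 alternative fits that gave a value. The exceptions were Snap47, lost in 8 fits, and Stx4a and Stx8, lost without TMM factors. Sv2b was removed by the filter with average logCPM over 1 or without siNC replicate 2. Of the 30 genes not called, 18 were called in no alternative fit. The fits called 19 to 24 of the genes, and those with a library left out 19 to 23. With FDR below 0.05 alone 23 were called. With a change of at least 2-fold required as well, 10 were called, 4 higher and 6 lower, and 2 on the pathway lists.

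Snap25 was called in each of the 14 fits, at 2.26 to 2.88 on the log2 scale with a library left out. Snap23 ranged from -2.07 (without siQk replicate 2, called) to -1.07 (without siQk replicate 3) and was also called with the likelihood ratio test (-1.37), without a filter (-1.35) and with the replicate block (-1.58, FDR 0.0414). Qk ranged from -2.29 to -1.76. The Snap25 share differed by 4.98 percentage points, or by 3.52 to 6.16 with a library left out. With a library left out, calls were gained for Syt1 (1.32), Stxbp5l (1.26), Syt7 (0.68), Syt14 (0.60) and Stx16 (-0.30) without siNC replicate 2, Stx17 (-0.52) and Stx6 (-0.49) without siNC replicate 1 and Snap29 (-0.23) without siNC replicate 3. Without TMM factors, Snap91 (0.49), Stx5a (0.26), Vamp2 (0.33), Syt1 (1.02) and Syt14 (0.64) were gained. DESeq2 and the likelihood ratio test gained Stx6, Stxbp5l, Syt1 and Syt14, RLE factors Stx6, upper quartile factors Syt14, and no filter Syt14 and Vamp5. Tags not divided by exon length moved the share difference of Cplx2 from -13.7 to -7.15 points. For Syn1 it was 1.44 points, from -0.79 (without siQk replicate 3) to 2.73.

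Genes not called that lay near 0 changed sign. Without TMM factors, Stx18 (0.086), Stx3 (0.065), Sv2c (0.050) and Syt13 (0.098) were above 0, and with upper quartile factors Syt13 (0.007). With a library left out, Sv2c ranged from -0.26 to 0.19, Syt13 from -0.12 to 0.145, Syt17 from -0.30 to 0.115 and Syt9 from -0.47 to 0.025. The causes were not tested.

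Whether libraries with the same replicate number share a preparation is not stated. The correlations between siNC and siQk deviations for replicates 1, 2 and 3 were -0.0528, -0.152 and -0.34. These values cannot settle whether the libraries were paired, and the main fit held no pairing. With the replicate block 20 genes were called (9 higher, 11 lower), 19 of them shared, with Snap23 gained and Snap47 lost. With 3 libraries a group, no exact permutation test of a single value can reach below 0.1.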
